A study of Mus musculus with 6 samples.

Results

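Expression of 10 genes of death receptor signalling was followed through the passaging of mouse embryonic fibroblasts (MEFs). They were chosen by name: the receptor genes Fas, Tnfrsf1a, Tnfrsf1b and Tnfrsf10b, the adaptor and kinase genes Fadd, Tradd, Ripk1 and Ripk3, the initiator caspase gene Casp8 and its inhibitor gene Cflar. All 10 were among the 21988 gene symbols of the deposited table, and all 10 were among the 13332 genes tested. The MEFs came from C57BL/6 embryos taken at 13.5 days, carried no stated genetic change, grew in serum-containing medium and were taken after 2, 8 and 14 population doublings (PD2, PD8 and PD14). Population doublings add up, over passages, the base 2 logarithm of the cell yield divided by the number seeded. There were 2 libraries per group. Replicate 1 was a strand-specific library depleted of ribosomal RNA (rRNA), and replicate 2 was a poly(A)-enriched library. The labels do not say whether the libraries came from separate cultures, so the p-values may not cover the spread between cultures. The fit has a term for library method. The p-values thus rest on how far the 2 methods disagreed about the differences between groups, which may be technical.

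Death receptors are members of the tumour necrosis factor (TNF) receptor family that carry a death domain in their cytoplasmic tail. Bound by its ligand, FAS assembles the adaptor FADD with caspase-8, and FLIP, the product of Cflar, sits in the same complex and restrains the caspase. TNF receptor 1, the product of Tnfrsf1a, first binds TRADD and RIPK1 in a membrane complex that turns on NF-kappaB, and only later can a cytosolic complex with FADD and caspase-8 form. Where caspase-8 is blocked, RIPK1 and RIPK3 join through a shared motif and RIPK3 phosphorylates MLKL, which is the route called necroptosis. In fibroblasts the same receptors are better known for inflammatory signalling than for death, since NF-kappaB targets, Cflar among them, keep the cells alive.

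Values are TPM as the authors deposited them, a unit that gives transcripts of a gene as a share of all transcripts and is scaled for transcript length. Differences are on the log2(TPM + 1) scale, which understates the change of genes with low TPM, and errors written ± are standard errors from limma with n = 2 libraries per group. P-values are two-sided, with Benjamini-Hochberg adjustment across all 13332 tested genes and a threshold of 0.05. As a check of the labels, Cdkn2a, which encodes cell-cycle inhibitors, was at 40.2, 185 and 190 TPM at PD2, PD8 and PD14 with rRNA depletion and at 62.1, 376 and 519 TPM with poly(A) selection. Mki67, the proliferation marker, was at 121, 56.4 and 36.4 TPM and at 52.1, 20.1 and 7.46 TPM in the same order. All 10 fibroblast markers passed the filter on low values. Their summed level was 20177, 29191 and 29711 TPM at PD2, PD8 and PD14 with rRNA depletion. With poly(A) selection it was 15072, 23075 and 19933 TPM. In each method 9 of the 10 were higher at PD14 than at PD2 and 1 was lower. In limma 3 of the 10 were called higher (Col3a1, Dcn and Lum) and 0 lower, beside 6.41% and 4.77% of all genes. Of 8 epithelial markers 3 passed it, with a summed level of the 8 of 22.1, 10.1 and 5.21 TPM at PD2, PD8 and PD14 with rRNA depletion, and 39.4, 8.57 and 2.58 TPM with poly(A) selection. Epcam and Cdh1, which define epithelium, stayed below 1 TPM, while Krt18 and Krt19 were called lower at PD14 than at PD2 (limma, adjusted p = 0.0214 and 0.0392). Of 8 endothelial markers 6 passed. The summed level of the 8 was 30.5, 23.6 and 26.3 TPM at PD2, PD8 and PD14 with rRNA depletion. With poly(A) selection it was 22.7, 18.2 and 15.0 TPM. With rRNA depletion 2 of the 8 were higher at PD14 than at PD2 and 6 were lower. With poly(A) selection 3 were higher and 5 lower. Kdr was called lower at PD14 (adjusted p = 0.0330), and the defining markers Pecam1 and Cdh5 stayed below 1 TPM. Of 18 macrophage and leukocyte markers 14 passed, and Cd3e, a T cell marker, was at 0 in all 6 libraries. The summed level of the 18 was 160, 27.9 and 40.6 TPM at PD2, PD8 and PD14 with rRNA depletion, and 433, 750 and 713 TPM with poly(A) selection. Lyz2 held most of this sum in the poly(A) libraries, and without it the sum was 61.6, 12.8 and 18.9 TPM with rRNA depletion and 95.8, 128 and 144 TPM with poly(A) selection. At PD14 the sums were thus lower than at PD2 with rRNA depletion and higher with poly(A) selection. The single markers were mixed: at PD14, 1 of 18 was higher and 15 were lower than at PD2 with rRNA depletion, and 11 were higher and 5 lower, C1qa, C1qb and C1qc among the 5, with poly(A) selection.

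The data show higher Fas and Cflar transcripts at PD14 than at PD2. Fas rose by a log2 of 2.13 ± 0.37 (adjusted p = 0.0338) and Cflar rose by 0.69 ± 0.13 (adjusted p = 0.0365). These were 2 of 10 genes, and 0 of 10 fell. The summed epithelial and endothelial markers were lower at PD14 than at PD2 in both methods, and the summed fibroblast markers were higher. The part of these markers in the results was not tested. Over all genes tested, 6.41% rose, 4.77% fell and 11.2% passed in either direction in the same comparison. The 10 genes had a median difference of 0.22, beside a median of 0.06 over all genes tested. Both PD14 libraries were above both PD2 libraries for 4 of the 10 (Fas, Tnfrsf1a, Ripk1 and Cflar), beside 22.4% of all genes, and below them for 0 of the 10, beside 15.8%. An unadjusted p under 0.05 was reached by 3 of the 10 (Fas, Tnfrsf1a and Cflar), beside 32.0% of all genes. Casp8, the target of the inhibitor that Cflar encodes, was at -0.29 ± 0.25 (adjusted p = 0.459).

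**Figure D1:**
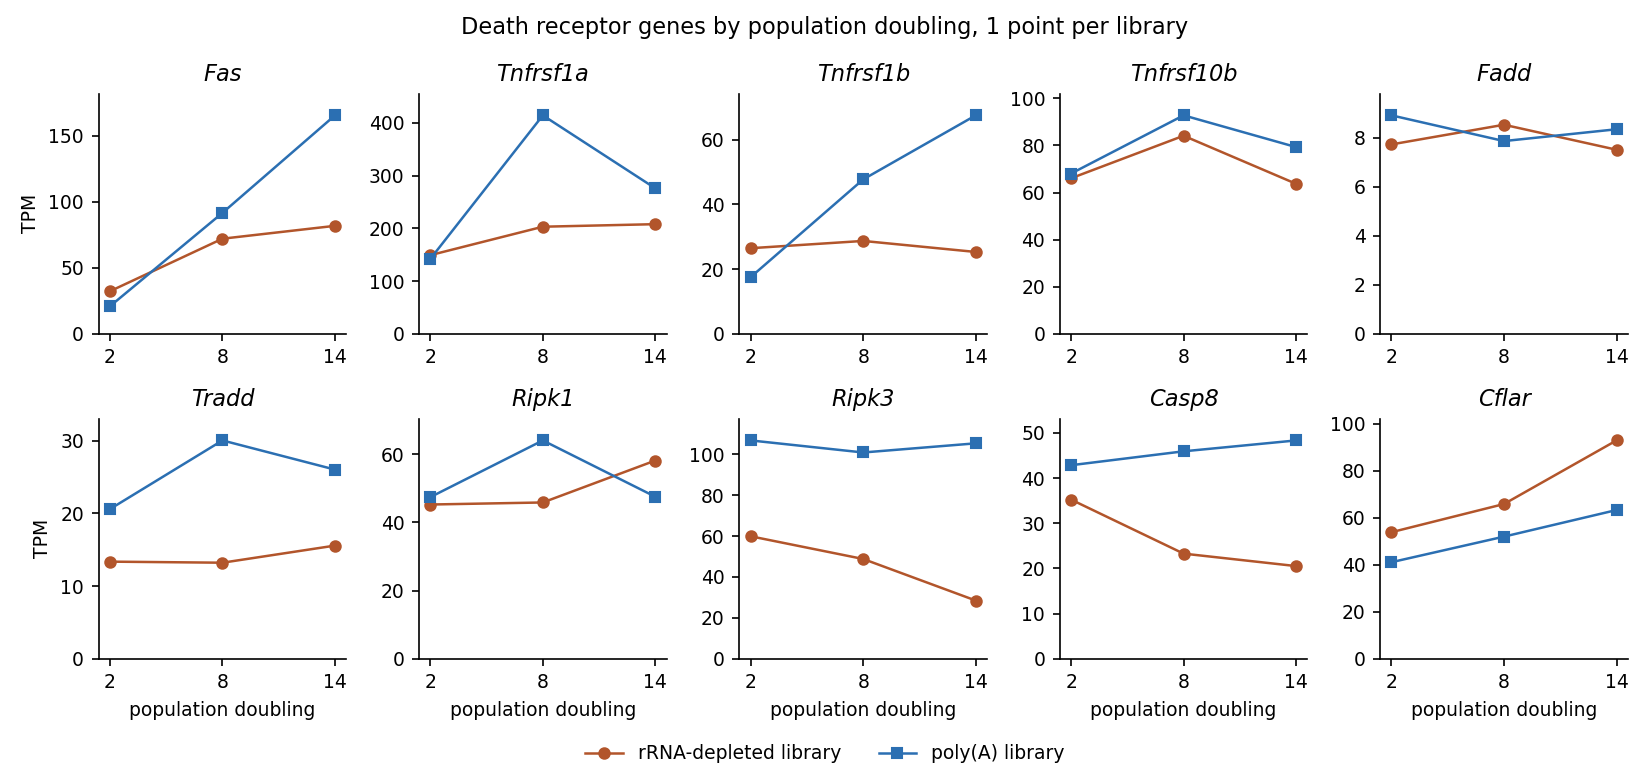
TPM of the 10 genes (vertical axes from 0, 1 scale per panel) against population doubling 2, 8 and 14, with 1 point per library and a line per library method. Fas and Cflar were higher at PD14 than at PD2 in both methods, while Fadd stayed between 7.51 and 8.92 TPM in all 6 libraries.

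Within each library the levels of the 10 genes kept a rough order. Tnfrsf1a was the highest in all 6 libraries, at 142 to 414 TPM. Fadd was the lowest in all 6, at 7.51 to 8.92 TPM, and Tradd lay between 13.2 and 30.0 TPM. By mean TPM the other 7 stood between Tnfrsf1a and Tradd. Among them were Tnfrsf10b (63.7 to 92.8 TPM), Ripk3 (28.5 to 107 TPM), Cflar (41.1 to 93.0 TPM) and Ripk1 (45.2 to 64.0 TPM). The rest were Casp8 (20.5 to 48.3 TPM), Fas (20.8 to 165 TPM) and Tnfrsf1b (17.5 to 67.5 TPM). Tradd was not below all 7 in every library, as in the PD2 poly(A) library it was at 20.6 TPM and Tnfrsf1b at 17.5 TPM. By mean TPM the range of each of these 7 overlaps that of its neighbours, so the order of neighbours does not hold beyond the spread of the libraries. Some genes further apart can be told apart, as Tnfrsf10b was above Ripk1, Casp8 and Tnfrsf1b in all 6 libraries. This does not hold for Fas, which had the highest mean of the 7 (77.3 TPM) but was below Cflar, Ripk1 and Casp8 in both PD2 libraries. All 10 were above 5 TPM in every library, as were 78.1% to 83.4% of the genes tested, depending on the library. Fas was the gene whose place moved furthest: it was seventh in both PD2 libraries, and at PD14 it was the third in the rRNA-depleted library and the second in the poly(A) library.

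Fas encodes the receptor of FAS ligand (chromosome 19, 34290666 to 34327772, plus strand, mm10). Its levels at PD2, PD8 and PD14 were 32.2, 72.0 and 81.8 TPM with rRNA depletion, against 20.8, 91.6 and 165 TPM with poly(A) selection. Both PD14 libraries were higher than both PD2 libraries, as were both PD8 libraries, and the PD14 library was above the PD8 library in each method. The ratio of PD14 to PD2 TPM was 2.54 with rRNA depletion and 7.96 with poly(A) selection. On the log2 scale the differences were 1.32 and 2.93, so the sizes differed between the methods while the direction did not. The fitted 95% interval of PD14 against PD2 was 1.18 to 3.07. The call was lost without the block for library method (adjusted p = 0.237), without the filter on low values (0.0677), without the mean-variance trend (0.0534) and without any 1 of the PD8 or PD14 libraries (0.0559 to 0.107). Without either PD8 library the fitted value was the same, 2.13, and what changed was the estimate of the spread and the adjustment over genes.

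The early step held most of the Fas difference by value. PD8 against PD2 was at 1.61 ± 0.37 (adjusted p = 0.127), and PD14 against PD8 at 0.51 ± 0.37 (adjusted p = 0.948). Neither step passed. The late step minus the early step was at -1.10 ± 0.65 (adjusted p = 0.9996), with an interval from -2.74 to 0.55, so the steps were not shown to differ. Without the PD2 rRNA-depleted library the early step passed at 2.25 (adjusted p = 0.00937), and without the PD2 poly(A) library it was 0.97 (adjusted p = 0.105).

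The genes whose course was nearest to that of Fas were found by the root mean square difference of 4 values, the log2 differences of PD8 and PD14 from PD2 in each library method, among 10993 genes with a mean TPM of at least 5. They were Ugt1a6b (0.08), Gldn (0.13), Efna3 (0.14), Ecm1 (0.15) and Tmem140 (0.26). Efna3 encodes a membrane-bound ephrin, Ecm1 an extracellular matrix protein and Ugt1a6b a glucuronosyltransferase whose exons are in part shared with its neighbours, so its value is uncertain. The likeness is a description over 6 libraries, and all 4 values of a gene share the PD2 libraries.

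Tnfrsf1a encodes TNF receptor 1, the main TNF receptor of fibroblasts and the one with a death domain (chromosome 6, 125349362 to 125362484, plus strand). The rRNA-depleted series ran 149 TPM (PD2), 203 TPM (PD8) and 208 TPM (PD14), and the poly(A) series 142, 414 and 276 TPM. All 4 libraries of PD8 and PD14 were above both PD2 libraries, and the highest value was that of the PD8 poly(A) library. The fitted difference was 0.72 ± 0.26 for PD14 against PD2 (adjusted p = 0.138, interval 0.04 to 1.39) and 0.99 ± 0.26 for PD8 against PD2 (adjusted p = 0.145). Neither passed, and the values turned on single libraries. Without the PD2 rRNA-depleted library both passed, at 1.11 (adjusted p = 0.0247) and 1.38 (adjusted p = 0.0266), and without the PD2 poly(A) library they were 0.32 (adjusted p = 0.417) and 0.60 (adjusted p = 0.242). Without the PD8 poly(A) library PD8 against PD2 was 0.56 (adjusted p = 0.687).

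Tnfrsf1b encodes TNF receptor 2, which has no death domain and recruits TRAF2 directly (chromosome 4, 145213463 to 145246870, minus strand). With rRNA depletion it had 26.5 TPM at PD2, 28.7 at PD8 and 25.3 at PD14, and with poly(A) selection 17.5, 47.7 and 67.5 TPM. The rRNA-depleted libraries were nearly level, whereas each later poly(A) library was higher. PD14 against PD2 was at -0.06 with rRNA depletion and 1.89 with poly(A) selection, with a fitted value of 0.91 ± 0.45 (adjusted p = 0.233). Without the PD2 rRNA-depleted library it passed at 1.72 (adjusted p = 0.0106), without the PD2 poly(A) library it was 0.10 (adjusted p = 0.838), and without the PD14 poly(A) library 0.26 (adjusted p = 0.746). Without the PD14 rRNA-depleted library it was 1.57 (adjusted p = 0.133). TNF receptor 2 is abundant on leukocytes, and the summed macrophage and leukocyte markers given above were lower at PD14 than at PD2 with rRNA depletion and higher with poly(A) selection. Their part in the result was not tested. In bulk RNA, fewer cells of a type and less RNA per cell cannot be told apart.

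Tnfrsf10b encodes the one death-domain receptor for the ligand TRAIL in the mouse (chromosome 14, 69767472 to 69784411, plus strand). Its levels at PD2, PD8 and PD14 were 66.1, 84.1 and 63.7 TPM with rRNA depletion, against 68.1, 92.8 and 79.3 TPM with poly(A) selection. Both PD8 libraries were the highest of their method, and the methods gave similar levels. PD8 against PD2 was at 0.39 ± 0.13 (adjusted p = 0.190), PD14 against PD8 at -0.31 ± 0.13 (adjusted p = 0.892), and PD14 against PD2 at 0.08 ± 0.13 (adjusted p = 0.690). The interval of the last, -0.24 to 0.41, leaves out a difference of the size fitted for Fas.

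At PD8 all 4 receptor genes were above both PD2 libraries in both PD8 libraries, and 0 of the other 6 members were. Of all genes tested 19.5% were higher in that way and 13.7% were lower, as were 0 of the 10. Within each method Cflar (0.29 with rRNA depletion and 0.33 with poly(A) selection) and Ripk1 (0.02 and 0.43) were also higher at PD8 than at PD2. A rise at PD8 was thus not confined to the receptor genes. None of the 4 receptor genes passed, and 3 had an unadjusted p under 0.05 in limma (Fas, Tnfrsf1a and Tnfrsf10b), beside 20.3% of all genes. In that comparison 0.0225% of all genes rose and 0% fell, so the test called almost nothing. The summed TPM of the 4 receptors was 274, 388 and 379 at PD2, PD8 and PD14 with rRNA depletion and 248, 646 and 588 with poly(A) selection. The share of Fas in that sum was 11.8%, 18.6% and 21.6% with rRNA depletion and 8.37%, 14.2% and 28.1% with poly(A) selection. Tnfrsf1a held 46.9% to 64.1% of it in every library. The ratio of Fas to Tnfrsf1a was higher at PD14 than at PD2 in both methods, at 0.393 against 0.216 with rRNA depletion and 0.600 against 0.146 with poly(A) selection.

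The promoters shown are those of Fas, Tnfrsf1a and Tnfrsf1b, receptor genes with both PD8 libraries above both PD2 libraries, and of Cflar, which passed at PD14. Ripk1 was also higher at PD8 than at PD2 within each method, and its promoters are not shown. RefSeq promoter entries (GRCm38.p6, which has the chromosome coordinates of mm10) matched 8 of the 10 genes, with 9 start sites, since Ripk1 has 2, and Tnfrsf10b and Tradd were not matched. The 250 bases before each start were searched on both strands for a GAS element of STAT factors (TTCNNNGAA) and for an AP-1 site (TGANTCA). Over 32851 promoters of that length, 7.02% held the GAS letters and 6.75% the AP-1 letters. The motifs were chosen with earlier results of these data known. A kappaB site and an interferon response core were left out after their matches had been seen, so these shares are no test of the matches. Matches are in capitals, 5′ to 3′ on the strand of the gene. The windows are chr19:34290409-34290658 (plus strand) for Fas, chr6:125349473-125349722 (plus strand) for Tnfrsf1a, chr4:145246871-145247120 (minus strand) for Tnfrsf1b and chr1:58711241-58711490 (plus strand) for Cflar.
Fas: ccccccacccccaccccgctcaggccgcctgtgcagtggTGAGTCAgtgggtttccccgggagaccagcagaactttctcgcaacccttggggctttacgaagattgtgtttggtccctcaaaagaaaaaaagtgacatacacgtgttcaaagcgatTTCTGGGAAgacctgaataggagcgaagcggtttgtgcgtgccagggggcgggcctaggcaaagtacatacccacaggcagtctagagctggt
Tnfrsf1a: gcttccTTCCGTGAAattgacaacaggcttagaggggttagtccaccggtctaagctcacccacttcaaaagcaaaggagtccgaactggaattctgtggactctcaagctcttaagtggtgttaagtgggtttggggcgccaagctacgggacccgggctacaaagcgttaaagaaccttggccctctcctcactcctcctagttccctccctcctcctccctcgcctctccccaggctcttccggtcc
Tnfrsf1b: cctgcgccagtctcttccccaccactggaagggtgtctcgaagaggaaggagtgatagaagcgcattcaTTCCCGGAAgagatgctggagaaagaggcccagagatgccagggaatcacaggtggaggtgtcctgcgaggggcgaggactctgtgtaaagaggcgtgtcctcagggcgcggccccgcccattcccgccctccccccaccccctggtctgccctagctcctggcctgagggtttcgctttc
Cflar: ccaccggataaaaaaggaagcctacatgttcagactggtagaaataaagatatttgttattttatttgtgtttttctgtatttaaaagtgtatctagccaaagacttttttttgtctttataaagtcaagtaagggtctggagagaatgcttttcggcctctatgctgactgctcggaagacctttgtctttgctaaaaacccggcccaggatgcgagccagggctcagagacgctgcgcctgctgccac
Fas held a GAS match 93 to 85 bases and an AP-1 match 211 to 205 bases before its start. Tnfrsf1a held a GAS match at 244 to 236 bases, and Tnfrsf1b held one at 181 to 173 bases. None of these matches overlap each other. The second start of Ripk1 held 2 GAS matches, and the promoters of Cflar, Casp8, Fadd and Ripk3 and the first start of Ripk1 held no match to either motif. Bases are counted from the RefSeq start, and the gene positions given in the text are those of GENCODE. The windows of Tnfrsf1a, Casp8 and the second Ripk1 start lie wholly inside the GENCODE gene, after its start. Those of Fadd and Ripk3 overlap the GENCODE gene in part. All matches are letters only and say nothing of binding in these cells.

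Among the adaptors and kinases 0 of 4 passed in any comparison, beside 11.2% of all genes for PD14 against PD2 and 0.0225% for PD8 against PD2. In limma 0 of 4 had an unadjusted p under 0.05, beside 32.0% and 20.3% of all genes in these comparisons. Fadd, the adaptor that links death receptors to caspase-8 (chromosome 7, 144577318 to 144582463, minus strand), was at 7.73, 8.53 and 7.51 TPM at PD2, PD8 and PD14 with rRNA depletion and at 8.92, 7.87 and 8.35 TPM with poly(A) selection. The groups overlapped, and PD14 against PD2 was at -0.06 ± 0.21 (adjusted p = 0.863, interval -0.58 to 0.46). Of its exonic bases 239 overlap the antisense gene Faddos, and the poly(A) libraries are not stated to keep strand, so reads of the pair cannot be told apart there. Tradd, the first adaptor on TNF receptor 1 (chromosome 8, 105258286 to 105264609, minus strand), was at 13.4, 13.2 and 15.6 TPM with rRNA depletion and 20.6, 30.0 and 26.0 TPM with poly(A) selection. It was higher at PD14 than at PD2 in both methods, by a fitted 0.26 ± 0.20 that did not pass (adjusted p = 0.405, interval -0.24 to 0.77).

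Ripk1 encodes the kinase that serves both as a scaffold for NF-kappaB signalling and as a trigger of death (chromosome 13, 34002363 to 34037147, plus strand). The rRNA-depleted series ran 45.2 TPM (PD2), 45.8 TPM (PD8) and 58.1 TPM (PD14), and the poly(A) series 47.4, 64.0 and 47.5 TPM. The PD14 libraries lay above both PD2 libraries, in the poly(A) method by a margin of 0.1 TPM, and the fitted difference was 0.18 ± 0.21 (adjusted p = 0.586, interval -0.34 to 0.70). Ripk1 shares 241 exonic bases with Serpinb6a on the opposite strand and 511 with a pseudogene on its own strand, so its values are uncertain.

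Ripk3 encodes the kinase of necroptosis (chromosome 14, 55784995 to 55788865, minus strand). With rRNA depletion it had 59.9 TPM at PD2, 48.8 at PD8 and 28.5 at PD14, and with poly(A) selection 107, 101 and 105 TPM. Each later rRNA-depleted library was lower, while the poly(A) libraries were level. PD14 against PD2 was at -1.05 with rRNA depletion and -0.02 with poly(A) selection, and the fitted -0.53 ± 0.26 did not pass (adjusted p = 0.232, interval -1.20 to 0.14). At each population doubling the poly(A) library was the higher, by a ratio of poly(A) to rRNA-depleted TPM of 1.78 at PD2, 2.07 at PD8 and 3.70 at PD14. The ratio of Ripk3 to Ripk1 was 1.32, 1.06 and 0.490 at PD2, PD8 and PD14 with rRNA depletion and 2.25, 1.57 and 2.22 with poly(A) selection.

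Casp8 and Cflar lie beside each other on chromosome 1 and encode related proteins, of which FLIP lacks protease activity. Casp8 (58795374 to 58847503, plus strand) was at 35.2, 23.3 and 20.5 TPM at PD2, PD8 and PD14 with rRNA depletion and at 42.8, 45.9 and 48.3 TPM with poly(A) selection. It was lower in each later rRNA-depleted library and slightly higher in each later poly(A) library, so the groups overlapped. PD14 against PD2 was at -0.75 with rRNA depletion and 0.17 with poly(A) selection, with a fitted interval of -0.92 to 0.34. For Ripk3 and Casp8, as for Tnfrsf1b, the summed macrophage and leukocyte markers were lower at PD14 than at PD2 with rRNA depletion (40.6 against 160 TPM) and higher with poly(A) selection (713 against 433 TPM), and their part in these values was not tested.

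Cflar (58711508 to 58758884, plus strand) was at 53.9, 65.9 and 93.0 TPM at PD2, PD8 and PD14 with rRNA depletion and at 41.1, 52.0 and 63.4 TPM with poly(A) selection. Each later library was higher in both methods, and both PD14 libraries were above both PD2 libraries. The ratio of PD14 to PD2 TPM was 1.72 with rRNA depletion and 1.54 with poly(A) selection, a closer match between methods than for Fas. Its steps were of like size, 0.31 ± 0.13 for PD8 against PD2 (adjusted p = 0.263) and 0.38 ± 0.13 for PD14 against PD8 (adjusted p = 0.866), and neither passed. The interval of PD14 against PD2 was 0.37 to 1.02. The call was lost without the block (adjusted p = 0.465), the filter (0.0583) or the trend (0.0630), and without any 1 of the 6 libraries (0.0612 to 0.130), while the fitted value stayed between 0.60 and 0.79.

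**Figure D2:**
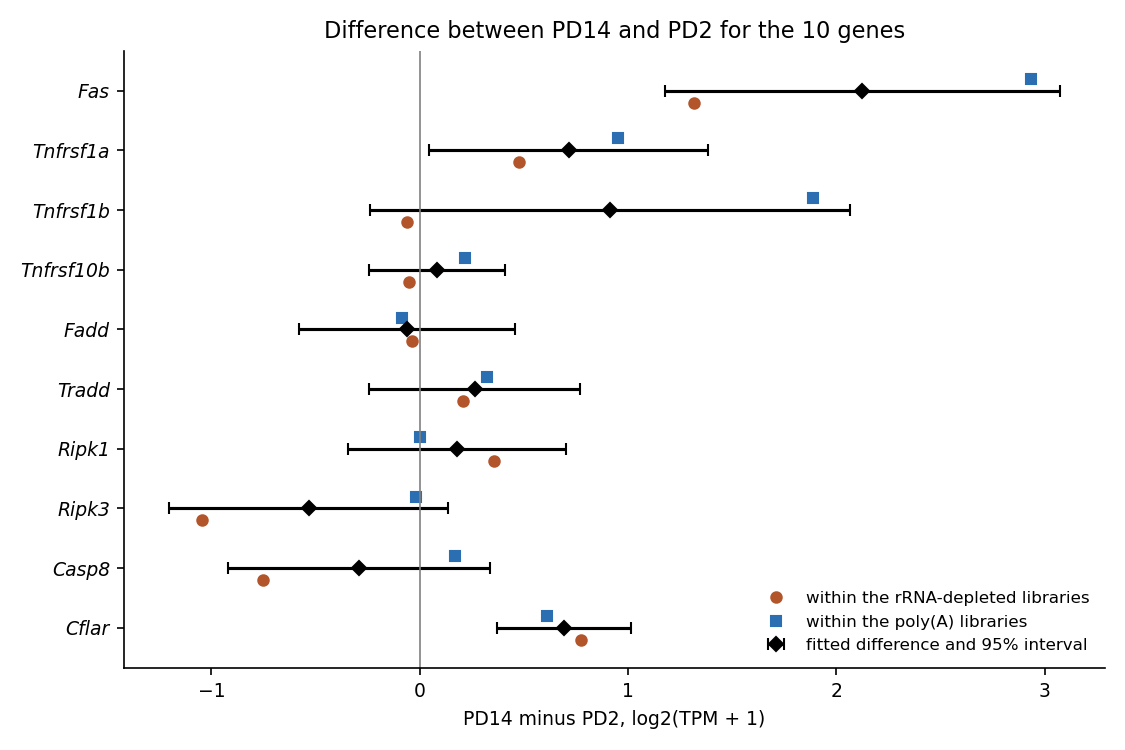
Difference of PD14 from PD2 on the log2(TPM + 1) scale (horizontal axis) for the 10 genes, with the fitted value and its 95% interval as diamonds and bars and the value within each library method as a circle or square. Fas at 2.13 and Cflar at 0.69 are the genes that passed, and Tnfrsf1b, Tnfrsf10b and Casp8 have opposite signs in the methods.

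The ratio of Cflar to Casp8 was higher at PD14 than at PD2 in both methods. It was 1.53, 2.83 and 4.53 at PD2, PD8 and PD14 with rRNA depletion and 0.961, 1.13 and 1.31 with poly(A) selection. The ratio was not tested. Opposite signs of PD14 against PD2 in the methods were seen for 3 of the 10 genes, beside 30.1% of all genes tested.

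**Figure D3:**
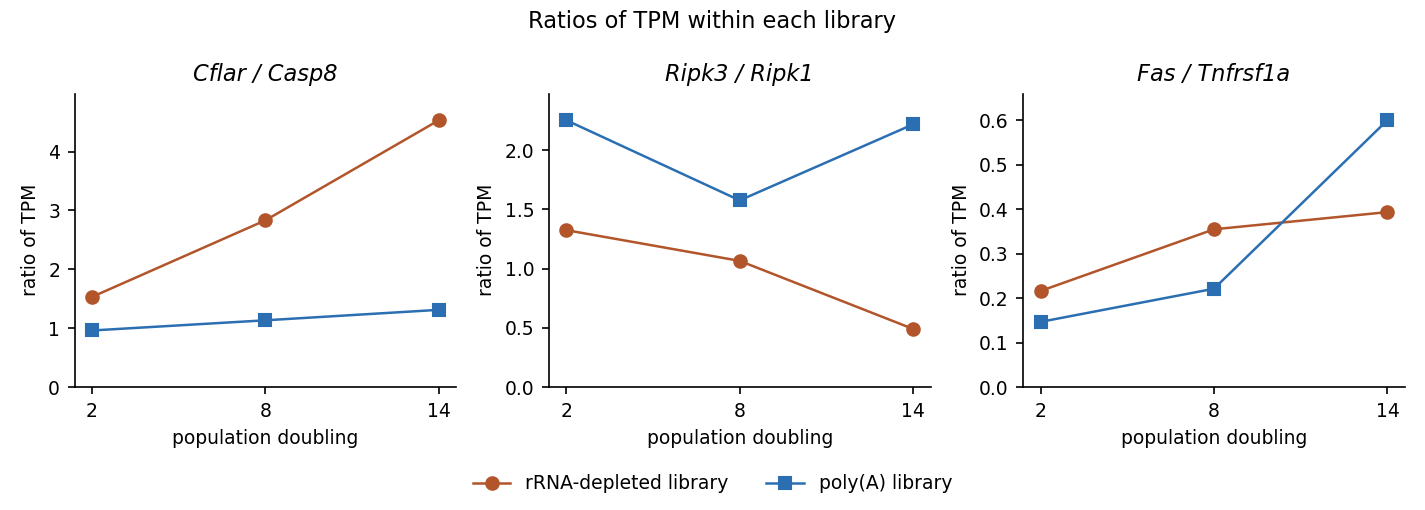
Ratio of TPM of a pair of genes within each library (vertical axes from 0) against population doubling, with 1 point per library. Cflar over Casp8 was 4.53 and 1.31 at PD14 against 1.53 and 0.961 at PD2, each time with the rRNA-depleted library before the poly(A) library, Ripk3 over Ripk1 differed between methods, and Fas over Tnfrsf1a was higher at PD14 in both.

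Between PD14 and PD8, 0 of the 10 genes passed in limma, as did 0% of all genes tested. An unadjusted p under 0.05 was reached by 1 of the 10 (Cflar), beside 5.60% of all genes. The late step minus the early step gave 0 of 10 as well, with 2 at an unadjusted p under 0.05 (Tnfrsf1a and Tnfrsf10b), beside 0% called and 4.25% unadjusted over all genes. An overall F test across PD2, PD8 and PD14 called 1.46% of all genes and 0 of the 10, of which 3 had an unadjusted p under 0.05, beside 24.2% of all genes, and Fas and Cflar had adjusted p = 0.0790 and 0.0883.

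Around the 10 genes, 62 other genes of the pathway were listed by role, and 54 passed the filter. Of the 54, 2 rose and 2 fell between PD14 and PD2, with a median of 0.19. That is 4 of 54, beside 11.2% of all genes. Of 8 ligand genes, 3 passed the filter, and most ligands were nearly absent: Fasl, the ligand of FAS, was at most 0.0517 TPM, and Tnfsf10, which encodes TRAIL, at most 0.277 TPM. Lta, Ltb and Tnfsf14 also stayed below 1 TPM in all 6 libraries. Tnf was at 0.610, 0 and 0.0617 TPM at PD2, PD8 and PD14 with rRNA depletion and at 0.488, 3.02 and 1.39 TPM with poly(A) selection. The exception was Tnfsf12, which encodes the cytokine TWEAK. It was at 17.6, 41.0 and 51.7 TPM with rRNA depletion and at 18.1, 36.3 and 45.0 TPM with poly(A) selection, and it rose by 1.39 ± 0.15 (adjusted p = 0.0183). Of its exonic bases 731 are shared with the read-through gene Tnfsfm13, so its values are uncertain. Tnfsf15 was at -0.28 ± 0.38 (adjusted p = 0.644).

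Of 9 other receptor genes 8 passed the filter. For PD14 against PD2, 0 of the 8 passed the test in limma, beside 11.2% of all genes. An unadjusted p under 0.05 was reached by 2 of the 8, beside 32.0% of all genes. Tnfrsf12a, the receptor of TWEAK, was at -0.59 ± 0.27 (adjusted p = 0.205). It had 150 TPM at PD2, 161 at PD8 and 80.9 at PD14 with rRNA depletion, 447, 334 and 367 TPM with poly(A) selection, and in both PD2 libraries it was above Tnfrsf1a, in the rRNA-depleted one by less than 2 TPM. Tnfrsf11b, the soluble decoy receptor osteoprotegerin, which also binds TRAIL, was at 0.14 ± 0.31 (adjusted p = 0.789).

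Of 24 genes of the ubiquitin and kinase machinery of the TNF receptor 1 membrane complex, 23 passed the filter. For PD14 against PD2, 0 of the 23 passed in limma, beside 11.2% of all genes. An unadjusted p under 0.05 was reached by 4 of the 23, beside 32.0% of all genes. Their median was 0.19. The 2 most abundant were Mapkapk2, a kinase that phosphorylates RIPK1, at -0.11 ± 0.17 (adjusted p = 0.684), and Chuk, a catalytic subunit of the IkappaB kinase, at 0.19 ± 0.13 (adjusted p = 0.380). Ikbkg, the regulatory subunit NEMO of the same kinase, was at 1.56 ± 0.35 (adjusted p = 0.0506) and shares 418 exonic bases with G6pdx on the opposite strand. It is named because its value was the largest of the list, after the values were seen.

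The 10 executor genes all passed the filter. Bid, which carries the caspase-8 signal to mitochondria, was at 0.45 ± 0.15 (adjusted p = 0.122) and shares 628 exonic bases with Bcl2l13 on the opposite strand. Zbp1, a sensor that can engage RIPK3 and is interferon-induced, had the largest value of the list at 2.85 ± 0.99 (adjusted p = 0.122), for which it is named after the values were seen. It was at 1.84, 3.88 and 3.42 TPM with rRNA depletion and 1.137, 17.4 and 69.8 TPM with poly(A) selection, so its difference rested mainly on the poly(A) libraries.

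Of 11 modulators 10 passed the filter, 1 rose and 1 fell, beside 6.41% and 4.77% of all genes. Nol3, which encodes ARC, an inhibitor of both caspase-8 and mitochondrial death, rose by 1.96 ± 0.23 (adjusted p = 0.0205), with 2.22, 8.06 and 9.97 TPM at PD2, PD8 and PD14 with rRNA depletion and 0.927, 5.22 and 7.59 TPM with poly(A) selection. Of its exonic bases 1531 overlap 4931428F04Rik on the opposite strand, so its values are uncertain. Casp8ap2, which encodes FLASH, a partner of caspase-8 that also acts in histone gene expression, fell by 0.79 ± 0.17 on the log2 scale (adjusted p = 0.0460), with 28.0, 19.7 and 16.2 TPM with rRNA depletion and 15.0, 10.0 and 8.04 TPM with poly(A) selection. The 2 most abundant modulators, Pea15a and Tmbim1, were at -0.27 ± 0.14 (adjusted p = 0.258) and 0.64 ± 0.18 (adjusted p = 0.0770). The calls of Tnfsf12, Nol3 and Casp8ap2 were lost without the block (adjusted p between 0.191 and 0.666) and without any 1 PD8 or PD14 library (0.0559 to 0.147), with fitted values of unchanged sign. Casp8ap2 was also lost without either PD2 library (adjusted p = 0.0992 and 0.127).

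**Figure D4:**
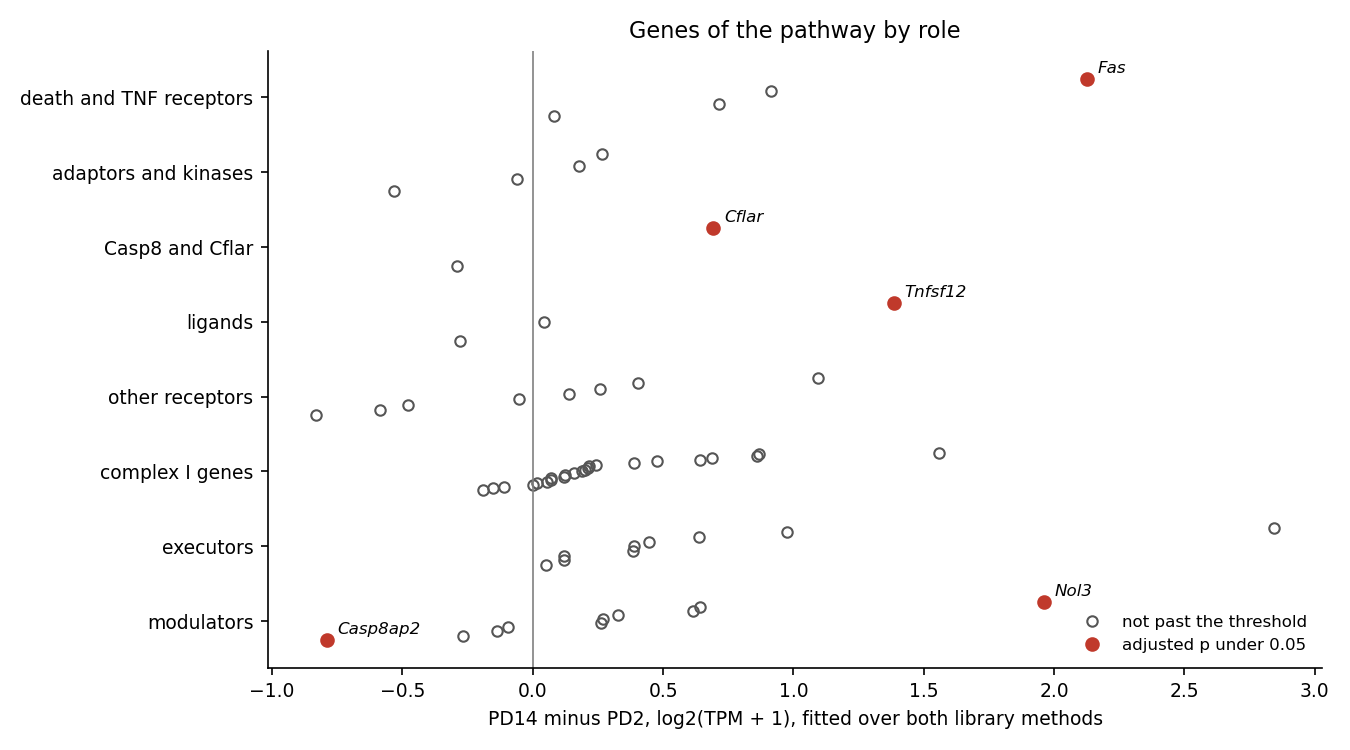
Fitted difference of PD14 from PD2 on the log2(TPM + 1) scale (horizontal axis) for the tested genes reported here, in rows by role, with filled red points for genes past the threshold and open points for the rest. The filled points are Fas, Cflar, Tnfsf12 and Nol3 to the right of 0 and Casp8ap2 to the left.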

How the data were processed

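RNA of 6 samples was measured by RNA-seq. The authors deposited TPM per gene symbol in 1 table of 21988 genes. The submitters' processing notes name bcl2fastq, cutadapt 1.14, HISAT2 2.0.5, StringTie 1.3.1c and mm10, without the role of each, and the gene annotation is not given in the sources used here. The deposited TPM summed to 1000000 in each poly(A) library and to 93.7% to 95.1% of that in the rRNA-depleted ones, so the table holds only part of the rRNA-depleted libraries. Read numbers cannot be had from TPM, and depth and counting error are unknown.

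Genes with at least 1 TPM in at least 2 of 6 libraries (13332) were fitted as log2(TPM + 1) in limma 3.58.1 (R 4.3.3) with a term per group, library method as an additive block and a mean-variance trend (2 residual and 3.22 prior degrees of freedom). The code was tested on simulated data without a difference between library methods, so that test does not bear on the block. The labels tie the replicate number to the library method. Deviations of same-numbered libraries from their group means correlated across genes at 0.664 to 0.854, so the block was kept. Intervals are 95%. Positions and overlaps came from GENCODE M21 and promoters from RefSeq.

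The 10 genes, the lists and the motifs were chosen with earlier results of these data known. A kappaB site and an interferon response core were also searched for in the promoters and are left out here, after their matches had been seen. The text names all 10 genes, the pathway genes past the threshold except 1 that is not reported here, the 2 of highest mean TPM in each role, the ligands, and genes said to be named after the values were seen. Alternatives were no block, a pseudocount of 0.1, no filter, TPM rescaled to 1000000, quantile normalization, no trend, and leaving out each library.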

Additional observations from a re-analysis of the deposited data

Results flagged for a closer look

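Tnfrsf10b was flagged among the 10 genes because its steps ran in opposite directions in every library pair. It was higher at PD8 than at PD2 in both library methods and lower at PD14 than at PD8 in both. The share of all genes with these signs is not given, so the pattern is not shown to be unusual. The late step minus the early step was -0.70 ± 0.22 on the log2(TPM + 1) scale (limma, unadjusted p = 0.0238, adjusted p = 0.9996 over all genes tested), so the difference did not pass. The steps share the PD8 libraries, so a high or low PD8 level moves them in opposite directions.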

How the results depend on the processing

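Without the replicate block, 0 genes passed in PD14 against PD2, in PD8 against PD2 and in the F test, with 0 of the 10 members and 0 of the 54 other pathway genes. The counts with the block were 1490, 3, 195, 2 and 4, and limma's unadjusted counts are in the report. The pairing by library method thus carries every call. Without the filter on low values, PD14 against PD2 gave 404 genes, 0 members and 2 other pathway genes, and the other comparisons 0. Without the trend it gave 938 genes and 0 members, and PD8 against PD2 and the F test gave 0. For PD8 against PD2, a pseudocount of 0.1 gave 21 genes and quantile normalization 0. Under quantile normalization Tradd turned to -0.035 in PD14 against PD8. The cause was not tested.

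Leaving out 1 library at a time leaves 1 residual degree of freedom, and the lone library of a group is assumed to vary like the rest. In PD14 against PD2 the counts then ranged from 0 to 1804 genes, 0 to 3 members and 0 to 8 other pathway genes. They ranged from 0 to 641 genes and 0 to 3 members in PD8 against PD2, and from 0 to 908 genes and 0 to 3 members in the F test. They ranged from 0 to 1 gene in PD14 against PD8 and from 0 to 3 in the step difference. Signs turned in values that did not pass. For PD14 against PD2 the ranges were -0.027 to 0.19 for Tnfrsf10b, -0.15 to 0.024 for Fadd, -0.10 to 0.46 for Ripk1, -0.69 to 0.11 for Casp8, -0.84 to 0.29 for Tnfsf15, -0.18 to 0.46 for Tnfrsf11b and -0.36 to 0.14 for Mapkapk2. For PD8 against PD2 they were -0.053 to 1.56 for Tnfrsf1b, -0.15 to 0.11 for Fadd, -0.069 to 0.51 for Ripk1, -0.49 to 0.12 for Ripk3 and -0.64 to 0.16 for Casp8. For PD14 against PD8 they were -0.057 to 1.08 for Fas, -0.70 to 0.15 for Tnfrsf1a, -0.50 to 0.81 for Tnfrsf1b, -0.18 to 0.089 for Fadd, -0.23 to 0.25 for Tradd, -0.33 to 0.25 for Ripk1, -0.81 to 0.11 for Ripk3 and -0.34 to 0.24 for Casp8. For the step difference they were -1.41 to 0.21 for Tnfrsf1b, -0.29 to 0.24 for Fadd, -0.72 to 0.24 for Tradd, -0.85 to 0.32 for Ripk1, -0.62 to 0.30 for Ripk3, -0.21 to 0.59 for Casp8 and -0.053 to 0.21 for Cflar. Fas, Tnfrsf1a, Tnfrsf1b, Tradd and Cflar stayed above 0 and Ripk3 below 0 in PD14 against PD2 without any 1 PD2 or PD14 library. Leaving out a PD8 library cannot change these fitted values, so it is no check of their signs.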
